A study of Homo sapiens with 8 samples.

Results

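The human ZNF genes of chromosome 19 encode zinc finger proteins, and 225 of them were followed here. They were chosen as the probe sets whose identifier places them on chromosome 19 and whose annotated symbol is ZNF followed by digits alone, which gave 225 of 21448 probe sets, each for a different gene. All 225 were found on chromosome 19 in the RefSeq gene table under the same symbol. By the same symbol rule, 223 probe sets lay on 20 other chromosomes, and chromosome 19 held 1233 further probe sets that are not ZNF by this rule. CCRF-CEM is an established human line of T-cell acute lymphoblastic leukaemia. The first group of 4 samples was given 1 µM OICR-9429 for 1 h and then kept for 1 h in a gel of bovine type I collagen at 1.7 mg/mL. The second group of 4 samples was untreated CCRF-CEM kept for 1 h in the same gel, and the labels name no solvent for it. OICR-9429 binds WDR5, a shared subunit of the MLL-family enzymes that methylate histone H3, so the comparison asks which transcripts differ when that inhibitor precedes culture in a 3D matrix. Both groups come from 1 cell line, every sample was grown in the gel, and the replicate numbers 1 to 4 in the sample titles occur in each group.

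Most ZNF genes of chromosome 19 arose by repeated tandem duplication and still lie beside each other in large clusters. Many of their proteins carry a KRAB domain ahead of an array of zinc fingers. The fingers bind DNA, often within transposable elements, and the KRAB domain recruits TRIM28, which brings the histone methyltransferase SETDB1 and HP1 proteins to silence the bound site. A smaller number of zinc finger genes on the chromosome lack a KRAB domain and lie singly among unrelated genes.

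Promoters are printed for the marker gene ZNF20 and for the genes at the ends of the pattern described further on, which are ZNF850 (highest at replicate number 2), ZNF708 (lowest at number 4), ZNF653 (lowest at number 2) and ZNF575 (highest at number 4), each among genes with 1 listed start. They are RefSeq sequences of build GRCh38.p14, 250 bases before to 50 bases after the start, and capitals mark the motifs searched on both strands. The GC box was searched as GGGCGG and the CCAAT box by its own letters. The E-box was searched as CACGTG, the core bound by ETS factors as CCGGAA, the TATA box as TATAAA and the core bound by YY1 as GATGGC, and letters where motifs overlap were counted for each motif.
ZNF20, chr19:12140301-12140600, minus strand: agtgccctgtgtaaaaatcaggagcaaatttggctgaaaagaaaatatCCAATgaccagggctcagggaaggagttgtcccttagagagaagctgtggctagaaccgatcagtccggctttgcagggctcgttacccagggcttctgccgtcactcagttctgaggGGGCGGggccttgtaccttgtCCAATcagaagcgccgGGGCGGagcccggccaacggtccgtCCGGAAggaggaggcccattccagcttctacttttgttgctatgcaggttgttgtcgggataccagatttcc
ZNF850, chr19:36772758-36773057, minus strand: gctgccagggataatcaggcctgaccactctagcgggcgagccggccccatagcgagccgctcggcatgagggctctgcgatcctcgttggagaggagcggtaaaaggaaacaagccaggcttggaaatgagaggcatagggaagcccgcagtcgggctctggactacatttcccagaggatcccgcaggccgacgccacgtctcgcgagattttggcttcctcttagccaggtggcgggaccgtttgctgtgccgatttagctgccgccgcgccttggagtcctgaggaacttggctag
ZNF708, chr19:21329361-21329660, minus strand: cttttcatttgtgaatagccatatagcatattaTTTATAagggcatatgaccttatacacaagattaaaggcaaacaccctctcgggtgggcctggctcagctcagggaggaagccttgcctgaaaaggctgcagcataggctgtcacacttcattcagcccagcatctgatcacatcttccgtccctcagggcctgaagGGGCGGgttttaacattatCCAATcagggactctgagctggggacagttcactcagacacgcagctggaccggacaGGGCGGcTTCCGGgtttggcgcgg
ZNF653, chr19:11505790-11506089, minus strand: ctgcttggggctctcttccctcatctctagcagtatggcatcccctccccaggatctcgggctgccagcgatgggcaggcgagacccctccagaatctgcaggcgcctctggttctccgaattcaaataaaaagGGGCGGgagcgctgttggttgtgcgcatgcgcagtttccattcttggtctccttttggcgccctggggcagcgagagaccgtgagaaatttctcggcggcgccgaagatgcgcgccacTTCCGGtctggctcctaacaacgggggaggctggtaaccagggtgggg
ZNF575, chr19:43532938-43533237, plus strand: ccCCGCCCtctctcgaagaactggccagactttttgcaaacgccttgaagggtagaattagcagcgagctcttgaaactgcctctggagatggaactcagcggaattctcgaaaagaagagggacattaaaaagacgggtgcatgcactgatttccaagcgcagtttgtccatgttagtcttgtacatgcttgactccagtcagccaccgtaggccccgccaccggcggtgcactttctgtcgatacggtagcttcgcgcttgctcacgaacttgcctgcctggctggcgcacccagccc

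The ZNF20 promoter held 2 GC boxes, 2 CCAAT boxes and 1 ETS core, and the ZNF850 promoter held 0 of the motifs. Of the 225 genes, 197 had a promoter in the table (ZNF155, the other marker gene, had no entry). In these 197, the ETS core was present in 54.8%. It was present in 48.1% of ZNF genes on other chromosomes that had a promoter, and in 22.2% of such other named chromosome 19 genes. Of all 27305 promoters of the table, 17.6% held it. The last share counts promoters and the others count genes, and 165 of the 197 members had 1 promoter. The GC box was present in 69%, 60%, 66.4% and 44.6% of those 4 sets, and the CCAAT box in 52.8%, 43.2%, 37.8% and 35.7%. The TATA box was rare at 2.03%, against 12% of all promoters, and the E-box (4.06% against 7.43%) and YY1 core (12.2% against 13%) were also less frequent than in all promoters. These shares are a description of the letters in the window.

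Each probe set has a log2 value on each array, with array medians over all probe sets of 6.38 to 6.46. No background signal was examined, so whether a dim member is transcribed is not known, and the value of one probe set does not rank its transcript against that of another. As a check of the labelled cell type, 16 of 17 measured T-lineage genes lay above the median level of all probe sets, with CD3E and CD3D of the T-cell receptor complex averaging 11.84 and 11.24 on OICR-9429 arrays. Such levels depend on the probes and describe the type only roughly. The markers of B cells, myeloid cells, erythroid cells and megakaryocytes, fibroblasts and epithelia, and NK cells had median levels of 5.26 to 6.42 by list, and 2 or 3 genes of each list lay above the median level of all probe sets, among them CD79A (B cells) and NKG7 (NK cells), which averaged 9.37 and 9.13 on OICR-9429 arrays. In such bulk samples, fewer cells of a type and less RNA per cell cannot be told apart.

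The mean level of a chromosome 19 ZNF gene over the 8 arrays had a median of 7.59 (lower quartile 6.51, upper quartile 8.38, range 3.00 to 10.65), against 7.27 for ZNF genes on other chromosomes and 6.44 for all probe sets. Of the 225, 174 (77.3%) lay above the median of all probe sets, and 66.8% of the ZNF genes elsewhere did. The 7 members with the highest values, ZNF100, ZNF43, ZNF675, ZNF254, ZNF253, ZNF730 and ZNF737, all lie in 1 cluster, from ZNF101 to ZNF254, and ZNF264 of another cluster was the eighth. ZNF100 measured 10.50, 11.04, 10.92 and 10.12 in OICR-9429 samples 1 to 4, against 10.65, 11.12, 10.75 and 10.08 in untreated samples 1 to 4. ZNF675, whose product inhibits signalling through TRAF6, measured 10.19, 10.89, 10.59 and 10.24 with OICR-9429 and 10.33, 10.84, 10.53 and 10.23 without it. In both genes, number 2 had the highest value of each group, and the groups overlapped. The 4 members with the lowest values were ZNF404 (2.96 ± 0.15 with OICR-9429 and 3.04 ± 0.30 untreated, SD, n = 4 each), ZNF285, ZNF471 and ZNF223.

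Most of the 225 genes followed a common course over the replicate numbers, and a minority went the opposite way. The median of their values was 7.55, 7.98, 7.70 and 7.29 on OICR-9429 arrays 1 to 4 and 7.59, 7.95, 7.63 and 7.15 on untreated arrays 1 to 4. Number 2 was the highest and number 4 the lowest in either group, while the median over all probe sets stayed within 6.38 to 6.46. At number 2, both arrays lay above the mean of their group's other arrays for 82.7% of the members, against 53.4% of ZNF genes elsewhere and 35.7% of all probe sets. At number 4, both arrays lay below for 70.2% of the members, against 53.8% and 36.3%. The plot of levels on each array shows these shifts.

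**Figure D1:**
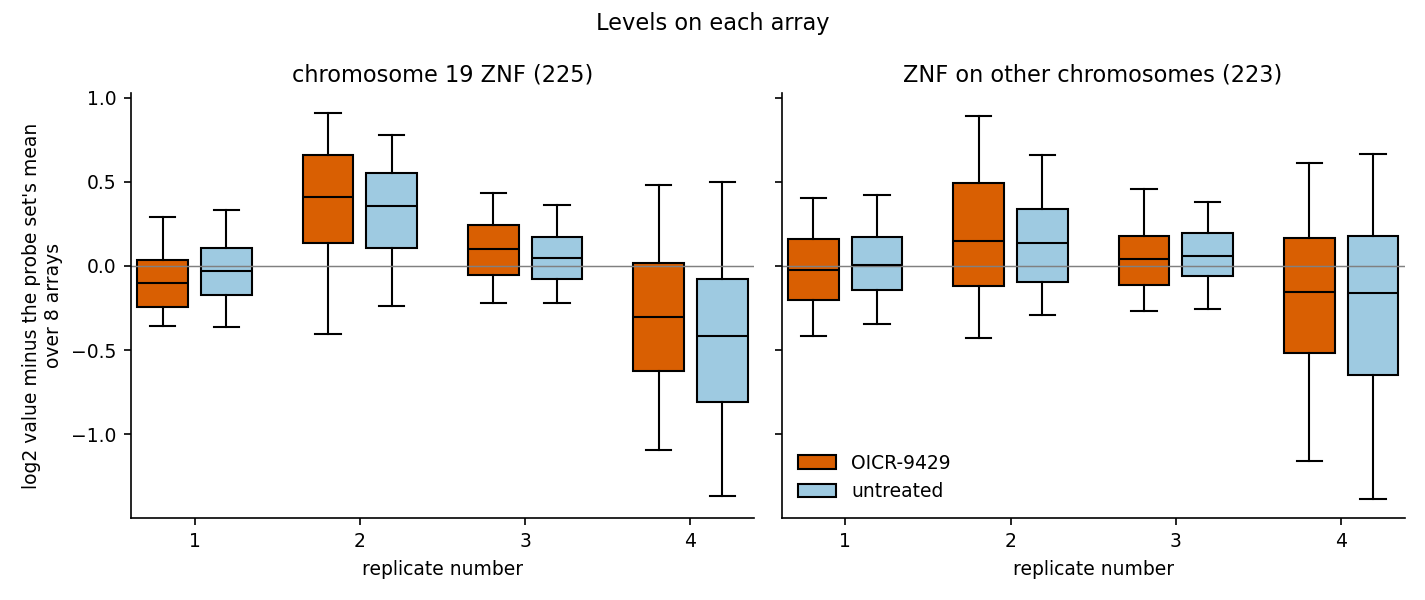
Log2 value of each probe set minus its mean over 8 arrays, for 225 ZNF genes of chromosome 19 (left) and 223 on other chromosomes (right), with OICR-9429 left of untreated at each replicate number. Boxes are quartiles with the median, and whiskers are the 5th and 95th percentiles over genes. Both groups stand highest at number 2 and lowest at number 4, further from 0 on chromosome 19.

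Replicate number accounted for 91.3% of the variance of the members over the arrays, treatment for 2.40% and the remainder for 6.27%. For ZNF genes elsewhere these shares were 88.8%, 3.42% and 7.80%, and for all probe sets 85.5%, 3.93% and 10.6%. Number has more levels than treatment, which alone raises its share, and the shares are not adjusted for that. In the model with number and treatment (limma), 162 of 225 members (72%) differed between the numbers at an adjusted p under 0.05, against 50.3% of all probe sets, 56.5% of ZNF genes elsewhere and 54.2% of the other chromosome 19 probe sets. Leaving out both arrays of number 4 left 63 such members, in a fit with fewer arrays. The share of all probe sets in that fit is not given here, so the drop cannot be read as particular to the members. Each number has 2 arrays, 1 per group, so these tests measure how the arrays of a number agree and not the spread between separate cultures.

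At number 2, compared with the mean of the other numbers, 136 members (60.4%) rose and 11 (4.89%) fell (limma, adjusted p under 0.05). Over all probe sets 15.4% rose and 11.6% fell, and among ZNF genes elsewhere 32.7% rose and 4.04% fell. The median log2 difference was 0.51 for the members, 0.14 for ZNF genes elsewhere, -0.20 for the other chromosome 19 probe sets and -0.01 for all. The count of members that rose was 39 without the OICR-9429 array of number 2, 79 without its untreated array and 81 without both arrays of number 4. Those fits held fewer arrays, and their shares over all probe sets are not given here. At least a 2-fold rise was seen in 20 members (8.89%), against 2.99% of all probe sets. ZNF850, a KRAB zinc finger gene, had the largest rise. It measured 10.08 and 9.93 on the OICR-9429 and untreated arrays of number 2, while its other arrays lay between 7.79 and 9.01. Its log2 difference was 1.49 ± 0.11 (SE, adjusted p = 0.00111, limma). ZNF841, also of the KRAB kind, measured 8.91 with OICR-9429 and 8.58 untreated at number 2, against 6.63 to 7.80 elsewhere, a log2 difference of 1.41 ± 0.14 (SE). ZNF653, a zinc finger gene without a KRAB domain whose product represses the nuclear receptor SF-1, went the other way. It measured 5.49 and 5.62 on the arrays of number 2, below all its other values of 5.92 to 6.77, and its log2 difference was -0.87 ± 0.11 (SE, adjusted p = 0.00184, limma).

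At number 4, 126 members (56%) fell and 25 (11.1%) rose (limma, adjusted p under 0.05), whereas over all probe sets 25.5% fell and 26.3% rose. Among ZNF genes elsewhere 39% fell and 17.9% rose, and among the other chromosome 19 probe sets 5.60% fell and 50.4% rose. The median log2 difference was -0.47 for the members, -0.20 for ZNF genes elsewhere, 0.40 for the other chromosome 19 probe sets and 0.08 for all. The comparisons of numbers 2 and 4 share arrays, since each number is among those the other is set against. With both arrays of number 2 left out, 102 members fell and 23 rose at number 4, in a fit whose shares over all probe sets are not given here. At least a 2-fold fall was seen in 53 members (23.6%), against 10.8% of all probe sets.

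ZNF708, a KRAB zinc finger gene, fell furthest. It measured 8.93, 9.63, 9.19 and 7.42 on OICR-9429 arrays 1 to 4 and 9.04, 9.62, 9.24 and 7.05 on untreated arrays 1 to 4. Both arrays of number 4 lay more than 1.5 log2 units below every other array, and the log2 difference was -2.04 ± 0.13 (SE, adjusted p = 3.74e-05, limma). ZNF507, a zinc finger gene without a KRAB domain, measured 9.11, 9.55, 9.04 and 7.23 with OICR-9429 and 9.17, 9.56, 8.96 and 7.28 untreated, a log2 difference of -1.98 ± 0.11 (SE). ZNF480 measured 9.19, 9.44, 9.45 and 7.35 with OICR-9429 and 9.39, 9.37, 9.32 and 7.49 untreated, so that numbers 1 to 3 were close and number 4 alone was low. ZNF567, ZNF121 and ZNF829 also fell, with log2 differences of -1.94, -1.93 and -1.92. ZNF146, whose protein consists almost wholly of zinc fingers, fell by 1.41 (SE 0.13).

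Of the 25 members that rose at number 4, ZNF575, ZNF414, ZNF667 and ZNF837 had the largest differences. ZNF575 measured 7.29 and 7.53 on the OICR-9429 and untreated arrays of number 4, against 6.08 to 6.72 elsewhere, a log2 difference of 1.01 ± 0.17 (SE, adjusted p = 0.00143, limma). ZNF414 measured 7.54 with OICR-9429 and 7.28 untreated at number 4, and its log2 difference was 0.95 ± 0.17 (SE). Its untreated arrays 1 and 3 stood at 6.81 and 6.82, and its lowest value was 5.78 on the OICR-9429 array of number 2. ZNF667, a KRAB gene, measured 5.51 and 5.45 at number 4, and its other arrays lay between 4.40 and 4.77. Several genes of this group, such as ZNF358, ZNF574, ZNF579 and ZNF653, lack a KRAB domain, while others such as ZNF446 and ZNF274 have one. ZNF274 recruits SETDB1 to the last exons of other ZNF genes, and it rose by 0.54 ± 0.16 (SE, adjusted p = 0.0243, limma).

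**Figure D2:**
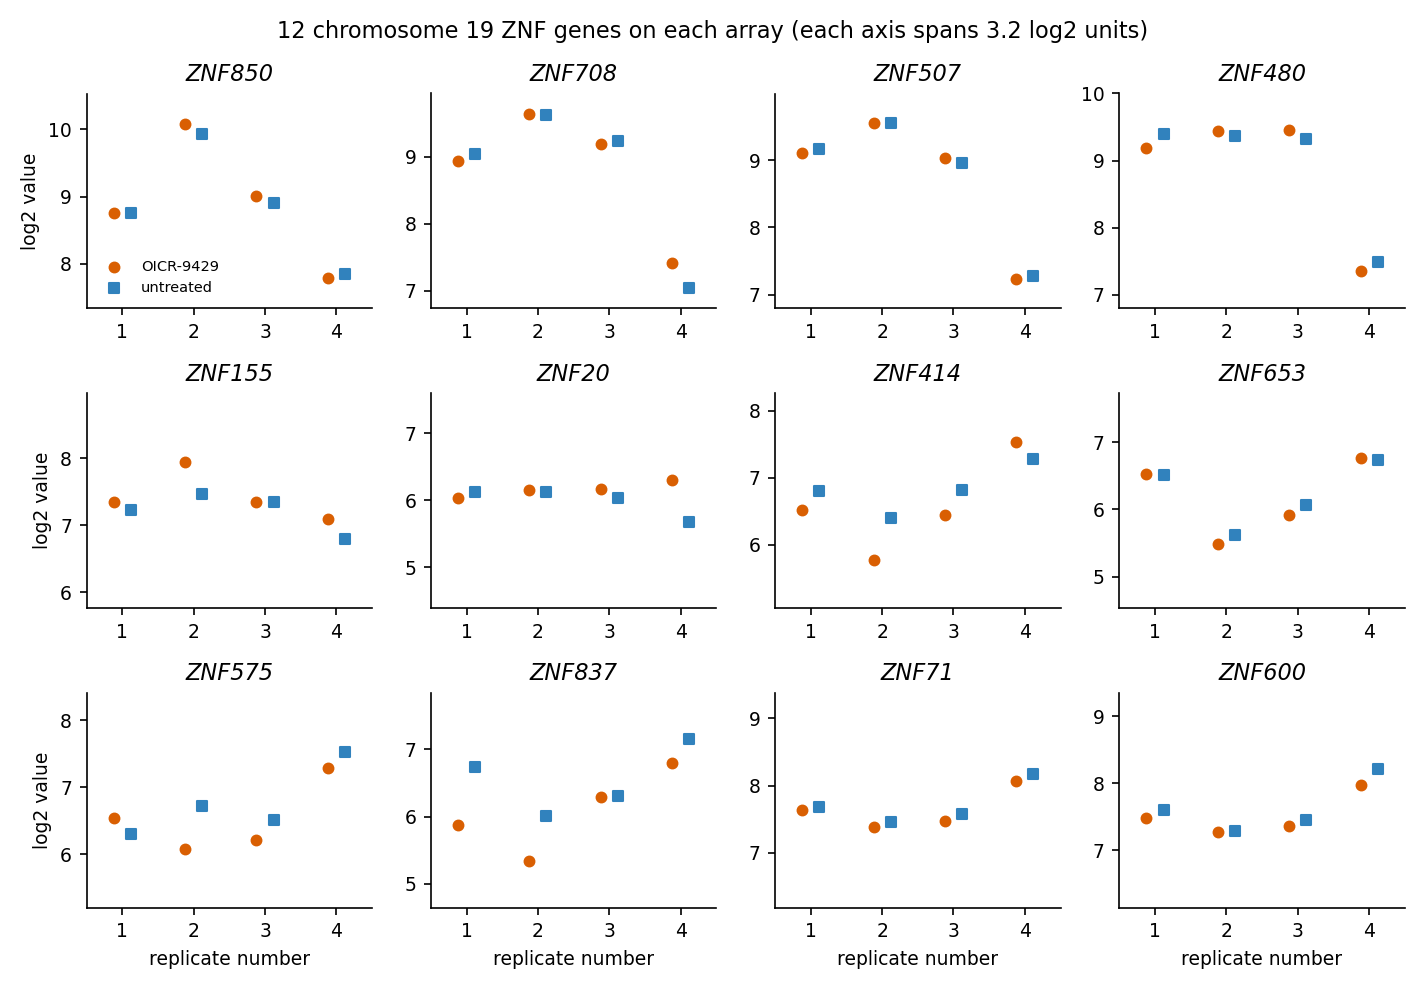
Log2 values of 12 members on each array (vertical axes, each spanning 3.2 log2 units) by replicate number, with OICR-9429 as circles and untreated as squares. ZNF850, ZNF708, ZNF507 and ZNF480 have their lowest values at number 4, whereas ZNF414, ZNF653, ZNF575, ZNF837, ZNF71 and ZNF600 have their highest there.

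The marker gene ZNF155 followed the majority. It measured 7.34, 7.94, 7.35 and 7.09 with OICR-9429 and 7.23, 7.47, 7.35 and 6.79 untreated, with log2 differences of 0.51 ± 0.13 at number 2 (SE, adjusted p = 0.0209, limma) and -0.51 ± 0.13 at number 4 (SE, adjusted p = 0.0115, limma). ZNF20 measured 6.03, 6.16, 6.17 and 6.31 with OICR-9429 and 6.13, 6.13, 6.04 and 5.68 untreated, and passed neither test (adjusted p = 0.737 at number 2 and 0.559 at number 4, limma). Its arrays of number 4 were the highest of the OICR-9429 group and the lowest of the untreated group.

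Numbers 1 and 3 set few members apart. At number 1, 9 members rose and 9 fell (4% each), against 10.6% and 6.14% of all probe sets. ZNF160 stood at -0.64 ± 0.13 and ZNF382 at 0.57 ± 0.12 (SE), and the value of ZNF382 turned to -0.07 without the arrays of number 4. At number 3, ZNF480, ZNF57 and ZNF101 rose, by 0.68, 0.63 and 0.61 on the log2 scale, and 0 fell (limma). Over all probe sets 1.18% rose and 0.2% fell at number 3. At an unadjusted p under 0.05, 8 members (3.56%) were lower there, against 6.93% of all probe sets. Without the arrays of number 4, the difference of ZNF480 at number 3 was 0.04, and it no longer passed. ZNF566 had the largest difference at number 3, 0.72 ± 0.20 (SE), and did not pass (adjusted p = 0.107, limma).

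A single profile described most members. The correlation of a member's 8 values with the median profile of the 225 had a median of 0.86 (lower quartile 0.45, upper quartile 0.94), where the 8 arrays share 4 replicate numbers. It was above 0.8 for 130 members (57.8%), against 30.0% of ZNF genes elsewhere, 2.51% of the other chromosome 19 probe sets and 15.1% of all probe sets. The profile itself is made of these members, so their own share is raised by construction. ZNF253 (0.99) and ZNF568 (0.99), whose mouse counterpart represses Igf2 in placenta, were closest to it. It was below -0.8 for 13 members (5.78%), against 7.62% of ZNF genes elsewhere, 26.0% of the other chromosome 19 probe sets and 10.9% of all. Of the 13, ZNF71 (-0.95) and ZNF600 (-0.94) were the farthest. ZNF600 measured 7.48, 7.28, 7.37 and 7.97 with OICR-9429 and 7.60, 7.29, 7.45 and 8.21 untreated, with number 4 highest in each group.

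The members were also described by their position on the chromosome. They were joined into runs when at most 2 other protein-coding genes lay between neighbours in the RefSeq order, which gave 32 runs, of which 11 held 5 or more members and together 197 of the 225. In these 11 runs 120 members fell and 12 rose at number 4, with a median log2 difference of -0.51. Of the 28 members outside them, 6 fell and 13 rose, with a median of 0.31. Over all probe sets 25.5% fell and 26.3% rose. At number 2 the medians were 0.58 inside the runs and -0.24 outside, where 3 rose and 5 fell. The members outside include ZNF358, ZNF414, ZNF575 and ZNF653, each alone among other genes, and also ZNF507, which fell at number 4. No test of the difference between the 2 sets of members was made.

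Among the runs, the 22 members from ZNF565 to ZNF573 had the lowest median at number 4, -1.04, with 19 lower and 0 higher. The 34 members from ZNF577 to ZNF331 had a median of -0.98 with 29 lower, and its 1 member that rose was ZNF600. The 33 members from ZNF101 to ZNF254 had -0.69 (26 lower, 0 higher), and 30 of them rose at number 2. The 24 from ZNF627 to ZNF791, the run of ZNF20, had -0.50 (13 lower, 0 higher), and the 20 from ZNF283 to ZNF180, the run of ZNF155, -0.41 (11 lower, 0 higher). Toward the end of the gene order the balance was different. The 35 members from ZNF264 to ZNF8 had a median of -0.19 with 12 lower and 6 higher, and the 7 from ZNF582 to ZNF835 had 2 lower and 3 higher (ZNF667, ZNF71 and ZNF835). The 5 from ZNF837 to ZNF446 had a median of 0.14 with 0 lower and 2 higher, and of -0.43 at number 2 with 3 lower. The runs from ZNF554 to ZNF77, ZNF266 to ZNF846 and ZNF302 to ZNF792, with 5, 7 and 5 members, had medians at number 4 of -0.10, -0.51 and -0.31.

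**Figure D3:**
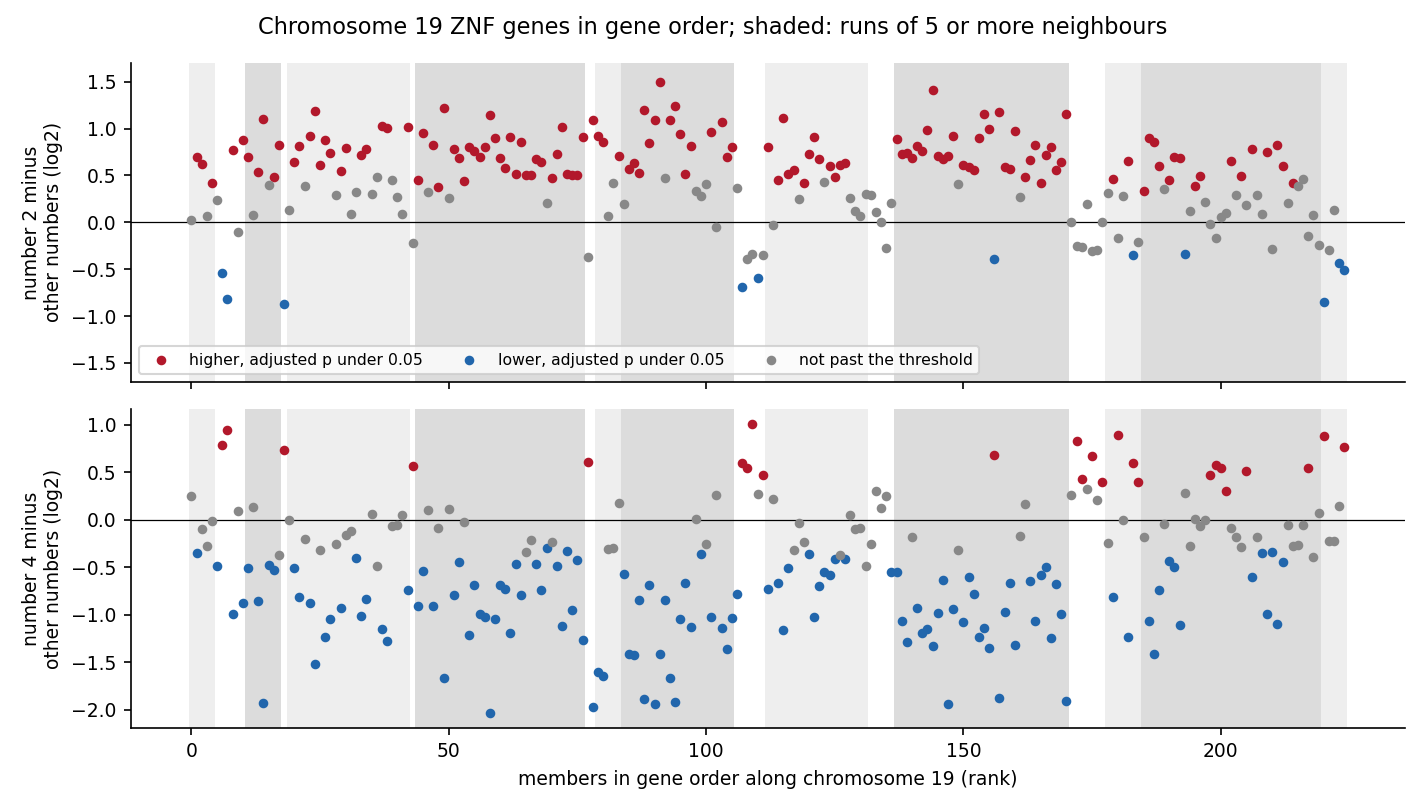
Log2 difference of replicate number 2 (top) and number 4 (bottom) from the mean of the other numbers, for the 225 members in gene order along chromosome 19 (rank on the horizontal axis), with runs of 5 or more neighbours shaded in alternating greys. Red and blue mark members higher and lower at an adjusted p under 0.05. The long runs are mostly red at number 2 and blue at number 4, and members between runs often have the opposite sign.

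Members of the same run, adjacent or not, were more alike in their deviations from the common profile than other pairs were. After the median profile was subtracted, 186 pairs of adjacent members of a run correlated over the 8 arrays with a median r of 0.31, the 2267 other pairs within a run with 0.27 and the 22747 remaining pairs with -0.02. Adjacent genes are often near copies of each other, and whether the probes of one also bind the transcript of another was not tested.

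Promoter GC content, averaged over the listed starts of a gene, had a median of 59.3% in members that fell at number 4 (111 genes). It was 64.2% in members that rose (23 genes) and 59.0% in members that did not pass (63 genes). The CCAAT box was present in 47.7%, 30.4% and 69.8% of these sets, and was thus most frequent in the members that did not pass. The GC box was present in 65.8%, 78.3% and 71.4%. Over the 197 members with a promoter, GC content correlated with the difference at number 2 at -0.21 and at number 4 at 0.12 (Pearson, across genes, which are not independent). The promoter of ZNF708 had a GC content of 52.3%, that of ZNF850 61.7% and that of ZNF575 55%, so these printed examples do not order by it.

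Level was set beside these differences because dim and bright probe sets can behave differently on arrays. Across members, mean level correlated with the difference at number 2 at 0.29 and at number 4 at -0.32 (Pearson, n = 225 genes on the same arrays). All 448 ZNF probe sets were divided into quartiles of mean level, as drawn in the plot by quartile. At number 2 the medians of chromosome 19 members were 0.28, 0.48, 0.57 and 0.70 from the dimmest to the brightest quartile, against 0.06, 0.13, 0.19 and 0.45 for ZNF genes elsewhere. At number 4 they were -0.12, -0.50, -0.49 and -0.73, against 0.01, -0.35, -0.18 and -0.70. In the brightest quartile, chromosome 19 minus elsewhere was therefore 0.25 at number 2 and -0.035 at number 4. The difference between chromosome 19 and the other chromosomes was not tested, since genes of the same arrays are not replicates.

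**Figure D4:**
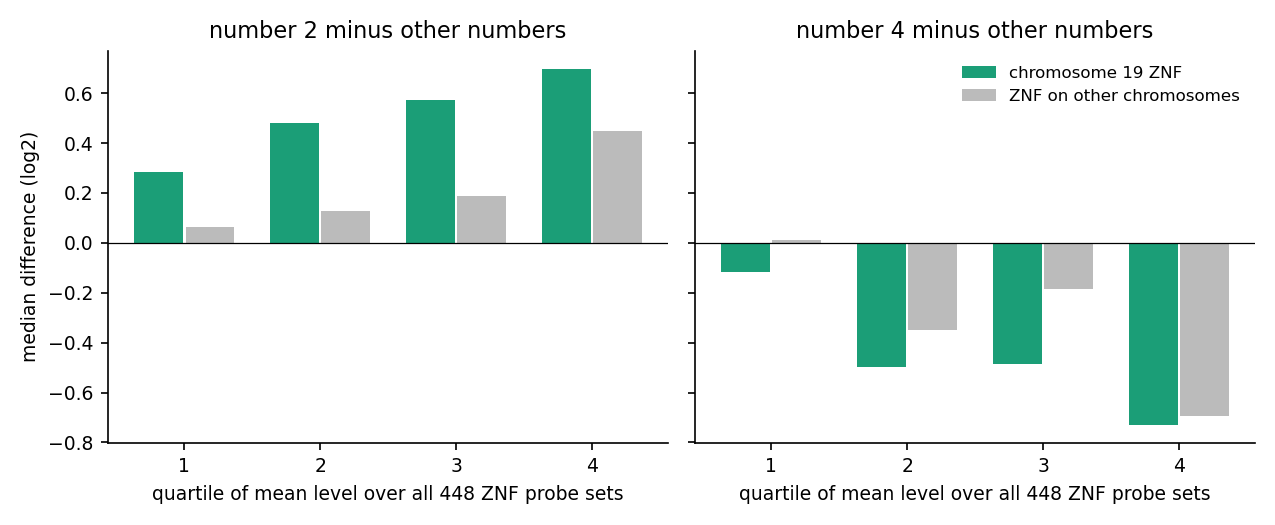
Median log2 difference of replicate number 2 (left) and number 4 (right) from the other numbers in each quartile of mean level over all ZNF probe sets, with chromosome 19 left of the other chromosomes. At number 2 the chromosome 19 bars are taller in every quartile (0.70 against 0.45 in the brightest), and at number 4 the brightest quartiles are close (-0.73 against -0.70).

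Genes that act with KRAB zinc finger proteins changed at number 4 as well. Of 35 genes listed, 32 were measured, and 21 fell and 2 rose there, with a median log2 difference of -0.54 (25.5% and 26.3% of all probe sets). The chromatin remodelers ATRX and SMARCAD1 stood lowest, at -1.98 ± 0.16 and -1.88 ± 0.12 (SE), and the H3K9 methyltransferase genes SUV39H1 and EHMT2 highest, at 0.67 ± 0.11 and 0.39 ± 0.13 (SE). TRIM28, which the KRAB domain binds, stood at 0.09 ± 0.13 and SETDB1 at -0.06 ± 0.13 (SE), and neither passed. At number 2, 8 of the 32 rose and 4 fell, with a median of 0.07, against 15.4% and 11.6% of all probe sets, so that the falls were near that share. SETDB1 rose there by 0.51 and TRIM28 fell by 0.47. By level, 29 of the 32 lay above the median of all probe sets. In the brightest quartile of ZNF probe sets, 75.8% on chromosome 19 and 60.9% elsewhere fell at number 4. In the dimmest quartile 22.2% and 16.4% fell. The part of level in the falls of the 32 was not tested.

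Other lists also differed between the numbers. At number 1, 14 of 15 hypoxia genes and 13 of 19 short-lived immediate early transcripts fell (medians -1.16 and -0.92), against 6.14% of all probe sets. Of the ZNF members, 9 rose and 9 fell at that number. At number 4, 13 of 15 hypoxia genes, 16 of 19 short-lived immediate early transcripts and 58 of 64 histone genes rose (medians 0.88, 0.94 and 0.70), against 26.3% of all probe sets. At number 2, 41 of 64 histone genes fell (median -0.46), against 11.6% of all probe sets. There 7 of 15 hypoxia genes rose (median 0.36), against 15.4% of all probe sets. Of the markers of other cell types, 5 of 8 myeloid, 3 of 6 NK, 2 of 8 fibroblast and epithelial, 1 of 6 erythroid and megakaryocyte and 1 of 5 B-cell genes rose at number 4, and 1 of each of these last lists (fibroblast and epithelial, erythroid and megakaryocyte, B-cell) fell. With lists this short, several of these counts are near the 26.3% and 25.5% of all probe sets that rose and fell. Of the 17 T-lineage genes, 6 rose and 3 fell. The summed level of the 8 myeloid markers lay between 39.7 and 45.0 on OICR-9429 arrays and between 40.0 and 44.5 on untreated arrays, and that of the 6 NK markers between 34.6 and 37.3 on OICR-9429 arrays and between 34.9 and 37.9 on untreated arrays. The part of these changes in the levels of the ZNF genes was not tested.

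No ZNF gene of chromosome 19 passed the test of OICR-9429 against untreated cells. With limma, 0 of 225 had an adjusted p under 0.05 and 0 an unadjusted p under 0.05, against 0% and 0.49% of all probe sets. The smallest unadjusted p among the members was 0.14, for ZNF99. With the replicate number as a block, which takes the difference within each number, 0 passed again (smallest adjusted p 0.841), and 4 were higher (1.78%) and 2 lower (0.889%) at an unadjusted p under 0.05, against 2.19% and 3.37% of all probe sets. These were ZNF426, ZNF99, ZNF805 and ZNF671 above 0 and ZNF835 and ZNF837 below it. In 0 members did all values of one group lie above all of the other, against 0.737% of all probe sets. With the block, the 95% interval of the log2 difference (not adjusted for the number of genes) had a median half-width of 0.26, and it lay within 2-fold for 225 of 225 members and within 1.5-fold for 217.

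The differences of the members were small and leaned above 0. Their median was 0.05 (lower quartile -0.05, upper quartile 0.13, range -0.48 to 0.34), with 140 of 225 (62.2%) above 0 and 83 (36.9%) below, against 51.1% and 48.3% of all probe sets. Among ZNF genes elsewhere 51.6% lay above 0, with a median of 0.0050. Among the other chromosome 19 probe sets 31.8% lay above 0, with a median of -0.06. Within replicate numbers 1 to 4 the median difference of the members was -0.06, 0.04, 0.06 and 0.08, and 36.4%, 58.2%, 62.7% and 64.4% of them lay above 0. For ZNF genes elsewhere these medians were -0.02, 0.06, 0.0000 and 0.06, and for the other chromosome 19 probe sets 0.01, -0.13, -0.07 and -0.03. Number 1 thus went below 0 where the other numbers went above it. All 4 differences were above 0 in 17 members (7.56%) and below 0 in 10 (4.44%), near the 5.94% and 6.62% of all probe sets. The median of the members turned to -0.08 without the OICR-9429 array of number 2 and to -0.10 without the untreated array of number 4. It reached 0.18 without the untreated array of number 2. These fits had no replicate block, so leaving out 1 array left the groups with different sets of numbers. Such medians therefore include differences between numbers.

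**Figure D5:**
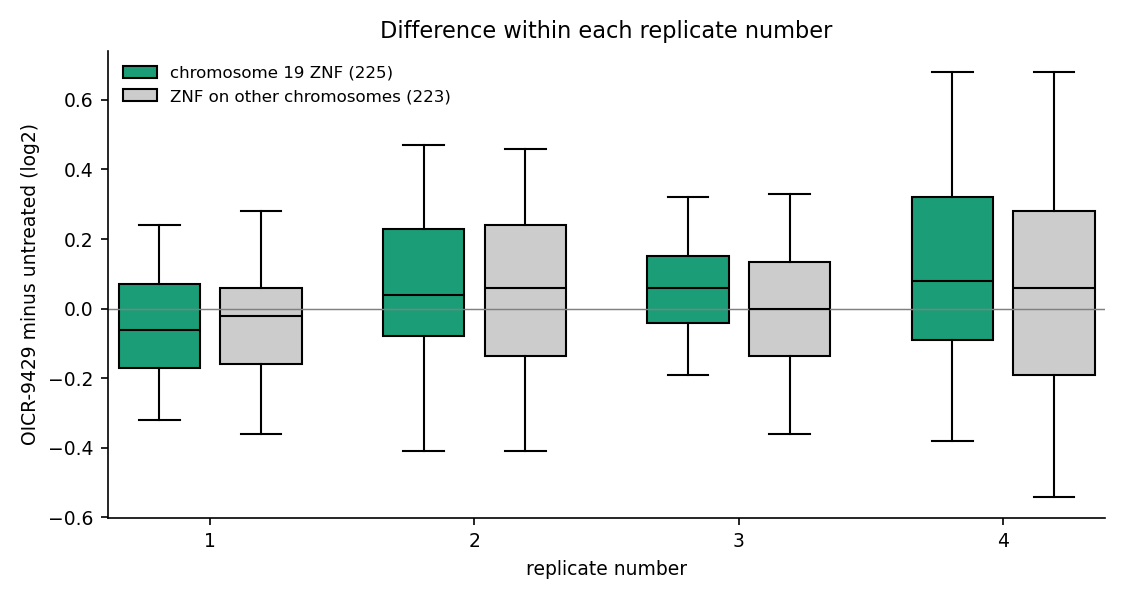
OICR-9429 minus untreated on the log2 scale within each replicate number, for 225 ZNF genes of chromosome 19 (left box of each pair) and 223 on other chromosomes. Boxes are quartiles with the median, and whiskers are the 5th and 95th percentiles over genes. The chromosome 19 medians lie at -0.06, 0.04, 0.06 and 0.08, within the boxes of the other genes.

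In the fit without the replicate block, the members with the smallest p above 0 were ZNF99, ZNF582, ZNF304, ZNF20, ZNF671 and ZNF549, none of which passed. ZNF99 measured 3.74, 3.99, 3.91 and 3.60 with OICR-9429 and 3.49, 3.68, 3.71 and 3.30 untreated, a log2 difference of 0.26 ± 0.16 (SE, or 0.09 with the replicate block). It was above 0 in 4 of 4 numbers, and the groups overlapped. ZNF582 and ZNF671, KRAB genes known for promoter methylation in cervical cancer, also stood above 0. ZNF582 measured 5.57 ± 0.21 with OICR-9429 and 5.25 ± 0.34 untreated, and ZNF671 measured 7.36 ± 0.38 with OICR-9429 and 7.11 ± 0.35 untreated (SD, n = 4 each). ZNF155 had a difference of 0.22 ± 0.23 and ZNF20 of 0.17 ± 0.16 (SE). With the replicate block these SEs were 0.11 and 0.13, and neither gene passed (adjusted p = 0.841 and 0.861, limma). ZNF155 was above 0 in 3 of 4 numbers and equal in number 3. The value of ZNF155 was 0.05 without the OICR-9429 array of number 2 and 0.08 without the untreated array of number 4. It was 0.33 without the OICR-9429 array of number 4. In these fits without the replicate block the groups held different sets of numbers, so the values include differences between numbers. The values of ZNF20 within numbers 1 to 4 were -0.10, 0.03, 0.13 and 0.63, so that number 4 gave most of its difference, which was 0.02 without that number.

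Below 0, those with the smallest p in that fit were ZNF835, ZNF837, ZNF875, ZNF536, ZNF324 and ZNF274, and these did not pass either. ZNF837 measured 5.87, 5.33, 6.29 and 6.80 with OICR-9429 and 6.74, 6.01, 6.30 and 7.15 untreated, a log2 difference of -0.48 ± 0.34 (SE, or 0.15 with the replicate block). Its differences within numbers 1 to 4 were -0.87, -0.68, -0.01 and -0.35. The difference was -0.23 without the OICR-9429 array of number 2 and -0.28 without the untreated array of number 4. It was -0.72 without the OICR-9429 array of number 4. These values, from fits without the block on different sets of numbers per group, include differences between numbers. ZNF835 measured 5.93 ± 0.25 with OICR-9429 and 6.23 ± 0.25 untreated (SD, n = 4 each) and was below 0 in 4 of 4 numbers. ZNF536, a repressor of neuronal differentiation, measured 3.44 ± 0.35 with OICR-9429 and 3.67 ± 0.36 untreated (SD, n = 4 each). ZNF274 measured 5.97 ± 0.41 with OICR-9429 and 6.17 ± 0.24 untreated (SD, n = 4 each). The genes were picked on these arrays for their p, so the agreement of their numbers is no separate evidence.

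Genes at the extremes of the numbers had treatment differences of different sizes, none past the threshold. ZNF708 had 0.05 ± 0.61, ZNF850 0.04 ± 0.52 and ZNF507 -0.01 ± 0.59 (SE), and with the replicate block these SEs were 0.11, 0.10 and 0.09. ZNF414 and ZNF575, which rose at number 4, had differences of -0.25 and -0.23, beside the -0.48 of ZNF837. ZNF667, which also rose at number 4, had a difference above 0, at 0.07. ZNF566, with the largest difference at number 3, had 0.34 ± 0.46 (SE, or 0.17 with the replicate block), the highest of the members. Of the 32 measured genes that act with KRAB zinc finger proteins, 23 had a difference above 0 (median 0.04), where 51.1% of all probe sets did. In the fit without the block 0 passed and 0 had an unadjusted p under 0.05 (limma), against 0% and 0.49% of all probe sets. Whether the list leaned further above 0 than all probe sets was not tested. TRIM28 measured 10.36 ± 0.35 with OICR-9429 and 10.39 ± 0.16 untreated, and SETDB1 9.24 ± 0.38 with OICR-9429 and 9.05 ± 0.19 untreated (SD, n = 4 each).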

How the data were processed

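The authors deposited log2 expression values for each probe set of a whole-transcript array. RMA and Transcriptome Analysis Console were used, per the submitters' processing notes, and samples were prepared with the GeneChip WT PLUS kit, per the labels' protocols. Tool versions and the build behind the probe sets were not given in the sources used here. In the platform annotation, 17709 of 21448 probe sets carry 1 gene symbol, 0 several and 3739 none. Scanner files were not used, so background signal and scan batch were not examined, and the number of arrays (4 per group) limits the precision.

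Groups were compared with limma 3.58.1 in R 4.3.3 (lmFit and eBayes, two-sided, no covariate), with Benjamini-Hochberg adjustment over all probe sets. A second limma model held replicate number and treatment. In it, the numbers were compared all at once and 1 at a time with the mean of the other 3. Differences are OICR-9429 minus untreated, or 1 number minus the others. Across probe sets, deviations from the group means correlated at 0.696, 0.748, 0.566 and 0.865 between arrays of the same number in the titles. All exceed a limit of 0.1, so the numbers were taken to pair the samples, and the treatment comparison was repeated with number as a block. The titles call the replicates biological and do not say whether they were separate cultures, so p-values describe the spread of these samples alone. The fits were tested on simulated data.

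The members, lists and tests were chosen with earlier results of these data known. Named genes were ZNF155 and ZNF20, the 8 highest and 4 lowest levels, the 6 smallest p on each side of 0 for treatment, the extremes of each number (6 lowest and 4 highest at number 4, 2 each way at the others), 2 each way of the correlation with the median profile, and the highest level in each run. From the cofactor list, TRIM28, SETDB1 and 2 each way at number 4 were named. Other genes, such as ZNF57, ZNF101, ZNF358, ZNF446, ZNF574, ZNF579, ZNF426 and ZNF805, were chosen after their values were seen. Gene order came from a RefSeq table of GRCh38.p14, used for names and neighbours. Alternatives were other variance, scaling and level settings, the replicate block and leaving out arrays or numbers.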

Additional observations from a re-analysis of the deposited data

Results flagged for a closer look

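In 110 groups of 4 arrays (the median of the members and 54 named genes in each treatment group), in 8 the array at one end stood far apart. Chance gives this in about 1 in 20 groups, but many of these genes were named for being extreme at a number, so that rate does not apply to them. Among the 8, 5 were arrays of number 4, and 4 of those 5 belong to genes named as lowest or highest at number 4 (ZNF480, ZNF829 and ZNF667). The OICR-9429 array of number 4 measured 7.35 for ZNF480 (the others 9.19 to 9.45) and 5.51 for ZNF667 (4.60 to 4.63). The untreated array of number 4 measured 7.49 for ZNF480 (9.32 to 9.39), 4.51 for ZNF829 (6.50 to 6.88) and 8.75 for ZNF146 (10.14 to 10.23). The OICR-9429 array of number 2 measured 3.85 for ZNF223 (3.24 to 3.34) and 7.26 for ZNF875 (6.87 to 6.93). The OICR-9429 array of number 1 measured 5.33 for ZNF709 (6.31 or more), beside an untreated value of 5.84 at the same number.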

How the results depend on the processing

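The treatment comparison gave 0 members past the adjusted threshold under every alternative run, the replicate block included. At an unadjusted p under 0.05 it gave 0 members, 6 with the replicate block and 0 to 11 when arrays or pairs were left out, with 1 without the OICR-9429 array of number 4. The median treatment difference of the members ran from -0.10 to 0.18 with arrays or pairs left out. The count of members that differed between numbers ran from 63 (without number 4) to 155. The counts at number 2 ran from 39 to 136 higher and from 2 to 13 lower, and those at number 4 from 100 to 127 lower and from 18 to 24 higher. These fits held fewer arrays, and their shares over all probe sets are not given here, so the moves cannot be read as particular to the members. Leaving out 1 array from the treatment fit without the block also left the groups with different sets of numbers. The treatment differences then include differences between numbers. The part of each in these moves was not tested. The difference in median between ZNF genes of chromosome 19 and those elsewhere was 0.37 at number 2 and -0.28 at number 4. It was 0.35 and -0.20 with quantile normalization, and 0.34 and -0.21 among probe sets above the median level. In level quartiles 1, 2 and 4 it was 0.22, 0.35 and 0.25 at number 2. At number 4 it was -0.13, -0.15 and -0.035 in those quartiles. In level quartile 3 the medians at number 2 were 0.57 on chromosome 19 and 0.19 elsewhere. At number 4 those medians were -0.49 and -0.18. With arrays or numbers left out, the difference in median was 0.27 to 0.43 at number 2 and -0.34 to -0.15 at number 4. Without number 4, the difference at number 1 turned to -0.105 for ZNF480 and -0.0725 for ZNF382, and without number 2 it was 0.8875 and 1.085. The median level ran from 7.45 to 7.70 with a number left out. Leaving out single arrays from the comparison of numbers was chosen after seeing the data. The alternative limited to ZNF genes with a KRAB motif in the protein was not run, since no protein sequences were used here.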
